A study of Bos taurus with 106 samples.

Results

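The mitochondrial ribosome and the mitochondrial protein import machinery were followed in liver biopsies of Holstein dairy cows from the start of the dry period, before calving, into lactation. Members were every array element with a single gene symbol that begins MRPL or MRPS followed by a digit, or TOMM or TIMM. The rule found 49 genes on 54 elements, among 4452 gene symbols on 5598 elements with 1 symbol. They comprised 27 MRPL genes on 30 elements, 12 MRPS genes on 14 elements, 5 TOMM genes and 5 TIMM genes. A further 5 elements carry a TIMM symbol beside another gene's symbol and were not attributed. The design compared 4 cows on a restricted amount of a moderate-energy diet, about 80% of the National Research Council (NRC) requirement, with 4 cows fed the same kind of diet ad libitum, about 120% of that requirement. Per the labels, the diet held 1.60 Mcal per kg and was fed through a dry period of 65 days, although the label of 1 ad libitum array leaves out the energy value. Livers were sampled on days -65, -30, -14, 1, 14, 28 and 49 relative to calving, from 7, 8, 8, 8, 8, 8 and 6 cows. On day -65 the restricted group had 4 cows and the ad libitum group 3, and on day 49 they had 4 and 2. Ages and parities are not given in the sources used here, and whole liver holds several cell types.

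The mitochondrial ribosome translates the few proteins encoded in mitochondrial DNA, which are core subunits of the respiratory chain. Its large-subunit proteins carry MRPL names and its small-subunit proteins MRPS names, and all are made in the cytosol and imported. Precursors are recognised and passed through the outer membrane by the TOM complex, chaperoned across the intermembrane space by small TIMM proteins, and passed into or through the inner membrane by the TIMM22 and TIMM23 translocases. In the liver of a dairy cow, mitochondria carry out fatty acid oxidation, ketone body formation and part of gluconeogenesis, which are heavily used around calving.

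Each value is the log2 ratio of liver over a common reference RNA mixed from tissues other than liver, so an element at 0 stood at the median ratio of its array. Every liver sample was hybridised on 2 arrays with the dyes exchanged, giving 106 arrays and 53 cow-days, and the value of a cow-day is the mean of both orientations after centring each array on its median. Ratios of different elements are not set against each other. All 54 member elements met the filter, under which every one of the 14 groups of diet and day needs values of 2 cows or more, and 5 member values were missing. The arrays of a cow-day correlated with r of 0.74 ± 0.06 on day -30 (SD, n = 8 cow-days), 0.56 ± 0.14 on day -14 (n = 8), 0.48 ± 0.21 on day 1 (n = 8) and 0.53 ± 0.18 on day 14 (n = 8). Of the 18 cow-days with r under 0.6, 16 fell on days -14, 1 and 14, which hold 24 cow-days, and 7 were from restricted and 11 from ad libitum cows. Before centring, the array median of all elements averaged -0.62, -0.56, -0.16, -0.07, -0.29, -0.76 and -0.32 on days -65, -30, -14, 1, 14, 28 and 49. A centred difference is therefore relative to the shift between its own days or groups, which was upward at day -14 against day -30, downward at day 28 against day 14 and upward again at day 49 against day 28. On day -14 the mean of 4 hepatocyte marker elements (TF, SLC10A1, RBP4 and APOA1) had a median of 3.72 over cows, against 4.54 on day -30, and all 4 lay above the array median on average. The mean of 7 stellate and fibroblast marker elements had a median of -0.88 on day -14 and -1.36 on day -30, and the mean of 7 endothelial marker elements one of 1.15 on day -14 and 1.79 on day -30. For 14 macrophage marker elements it was 2.77 on day -14 and 2.68 on day -30, and for 6 T and NK cell marker elements 1.15 on day -14 and 1.04 on day -30. Of the hepatocyte elements 3 of 4 were lower on day -14, and of the stellate and fibroblast elements 5 of 7 were higher. The part of these markers in the results below was not tested, and in bulk liver fewer cells of a type and less RNA per cell cannot be told apart. Whether the lower agreement between arrays on day -14 had a part in these marker values was also not tested.

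Over the 7 days, 23 of the 54 member elements changed in limma's F test at an adjusted p of 0.05, which is 42.6%, beside 43.4% of all 8061 elements tested. By class these were 12 of 30 MRPL, 7 of 14 MRPS, 2 of 5 TOMM and 2 of 5 TIMM elements. The members' share was near that of the array. Without centring 37 of 54 members passed (68.5%), beside 59.1% of all elements. With the agreement between a cow-day's arrays as a covariate 9 passed (16.7%), beside 24.6%. Without the ad libitum cow 7161 it was 15 (27.8%), beside 31.3%, and without the ad libitum cow 7187 it was 13 (24.1%), beside 30.2%. The members did not move as a block, as the plot of day means of the 54 elements shows.

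**Figure D1:**
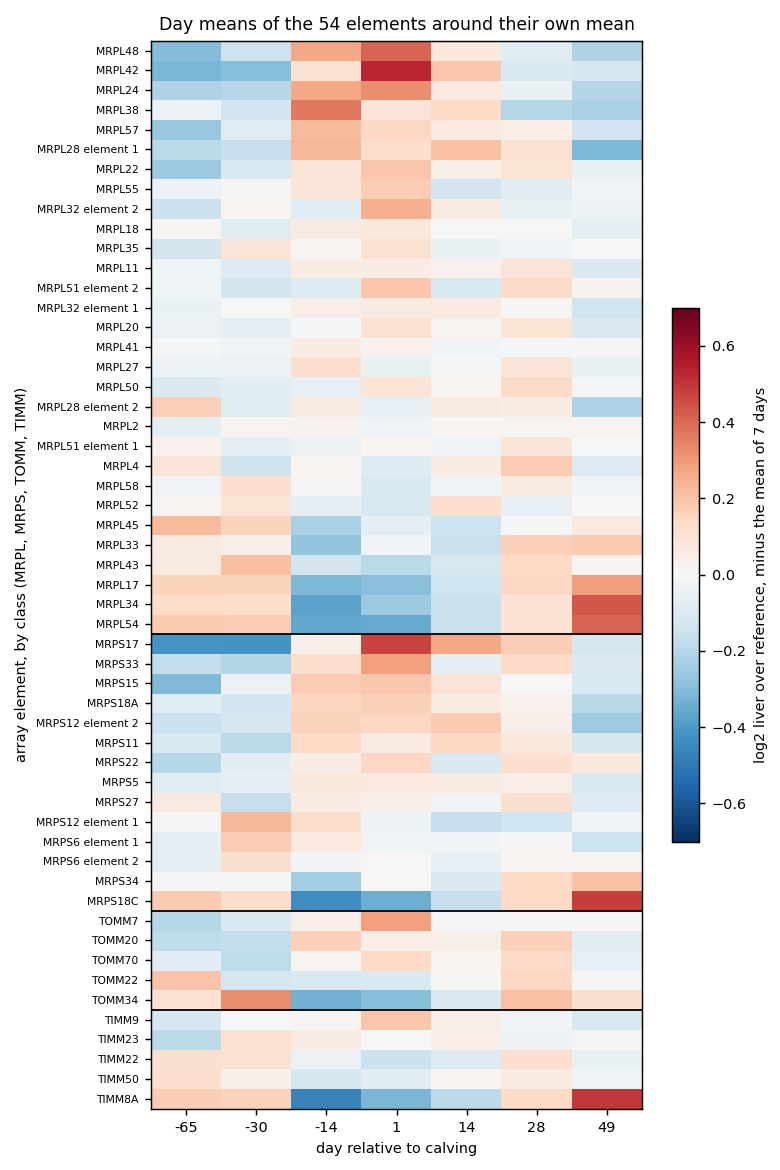
Day means of each of the 54 elements (rows, grouped by class; columns, day relative to calving) as log2 liver over reference minus the element's own mean of 7 days. Elements that were high on days -14 and 1, such as MRPS17 and MRPL42, stand beside elements that were low on those days, such as TOMM34 and TIMM8A.

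The small-subunit proteins held the element with the smallest p of all members. MRPS17, a small-subunit protein related to bacterial S17, had medians of 0.18, 0.18, 0.67, 1.12, 0.87, 0.82 and 0.55 on days -65, -30, -14, 1, 14, 28 and 49. Its 8 cows lay between 0.58 and 1.35 on day 1, and its 8 cows on day -30 between -0.18 and 0.45. The values of those days did not overlap, and the F test gave an adjusted p of 2.64e-07.

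MRPS34, another small-subunit protein, changed with an adjusted p of 0.00224 but was lowest on day -14. Its medians were -0.52, -0.55, -0.70, -0.42, -0.59, -0.38 and -0.33 from day -65 to day 49. In the F test it passed in each orientation alone, and not without centring. At day -14 against day -30 MRPS34 differed by -0.23 on the mean of both orientations, with -0.70 in Cy3 and 0.24 in Cy5. MRPS6 element 2 had the largest p of the small-subunit elements (adjusted p = 0.741), with day means between -0.88 and -0.70.

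Among large-subunit proteins, MRPL42 had medians of -0.52, -0.48, -0.15, 0.31, -0.09, -0.29 and -0.37 over the 7 days. On day 1 its 8 cows lay between -0.04 and 0.45, above all 8 cows of day -30, which lay between -0.78 and -0.36. The F test gave an adjusted p of 4.89e-06. With liver in Cy5 alone MRPL42 passed, and in Cy3 alone it did not. At day -14 against day -30 it differed by 0.04 in Cy3 and 0.77 in Cy5. MRPL28 element 1 had medians of 0.29, 0.36, 0.83, 0.64, 0.70, 0.64 and 0.23 (adjusted p = 6.85e-05), high from day -14 to day 28 and low again on day 49. MRPL27 had the largest p of the class (adjusted p = 0.999), with day means between 0.11 and 0.28. Its spread on day 1 was wide, from -2.78 to 1.70 over the 5 cows with a value.

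TOMM34, a cytosolic co-chaperone that binds heat shock proteins and mitochondrial precursors rather than a core subunit of the TOM pore, had medians of -0.01, 0.15, -0.50, -0.43, -0.18, 0.05 and -0.13 (adjusted p = 0.00172). TOMM7, a small subunit that stabilises the TOM complex, had medians of -0.96, -0.84, -0.63, -0.44, -0.75, -0.70 and -0.68 (adjusted p = 0.0024). Its highest day was day 1, with cows from -0.86 to -0.05, which overlapped with day -30 (-0.88 to -0.61). In the F test TOMM34 passed in Cy3 alone, and not in Cy5 alone, without centring or with the agreement covariate. TOMM7 did not pass with that covariate. TOMM70, the receptor for carrier precursors, had the largest p of the TOMM elements, with day means between -0.34 and -0.02 and an SD of 0.71 on day 1.

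TIMM8A, one of the small chaperones of the intermembrane space, had medians of 0.05, 0.07, -0.46, -0.22, 0.16, 0.07 and 0.45 (adjusted p = 0.00671). Its spread was 0.88 on day -14 and 0.17 on day -30 (SD, n = 8 each), so the low mean of day -14 came with cows as high as 0.78 and as low as -2.12. TIMM9, the partner of TIMM10 in another such chaperone, had medians of -0.65, -0.55, -0.43, -0.29, -0.44, -0.57 and -0.65 (adjusted p = 0.0409). In the F test TIMM8A did not pass in Cy5 alone, without centring or with the agreement covariate. TIMM9 did not pass in Cy3 alone or with that covariate. TIMM23, the channel of the presequence translocase, had the largest p of the class, with day means between 0.34 and 0.63.

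**Figure D2:**
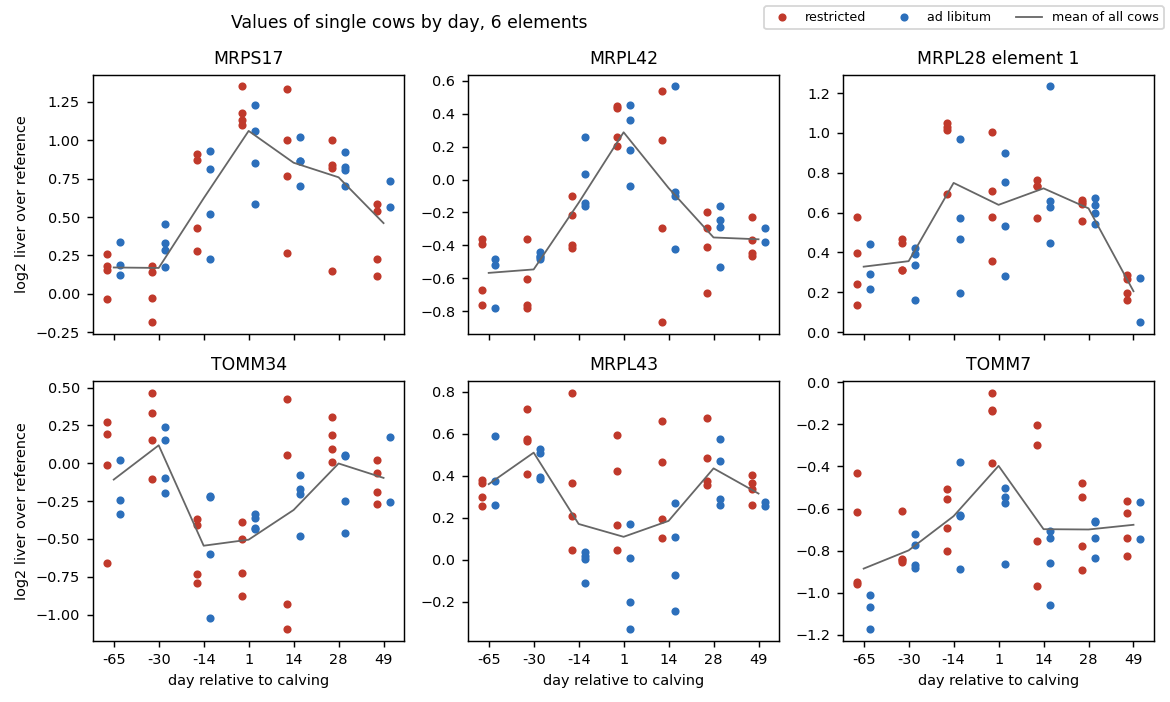
Log2 liver over reference of single cows (points; restricted to the left of ad libitum) by day relative to calving for MRPS17, MRPL42, MRPL28 element 1, TOMM34, MRPL43 and TOMM7; the line joins the means of all cows. MRPS17 and MRPL42 were highest on day 1, and TOMM34 was low in all 8 cows on day -14.

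The step with the most members past the threshold lay before calving. On day -14 against day -30, 19 of the 54 elements passed, 10 higher and 9 lower, beside 33.5% of all elements, of which 19.5% of all elements were higher and 14% lower. The median difference was 0.05 on the log2 scale for members and 0.06 for all elements. Without centring the split changed to 23 higher and none lower among members, and 3344 higher and 117 lower among all elements.

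TOMM34 fell most clearly. On day -14 its 8 cows had a lowest value of -1.02, a median of -0.50 and a highest value of -0.21, against -0.20, 0.15 and 0.47 on day -30. The days did not overlap and all 8 cows were lower on day -14. The difference was -0.66 ± 0.15 (SE; adjusted p = 0.00102), and it passed with liver in Cy3 alone (-0.74) and in Cy5 alone (-0.59). Without centring it was -0.24 and did not pass.

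MRPL28 element 1 rose. On day -14 its lowest, median and highest values were 0.20, 0.83 and 1.05, against 0.16, 0.36 and 0.47 on day -30. The ranges overlapped, and all 8 cows were higher on day -14. The difference of 0.39 ± 0.10 (adjusted p = 0.00281) had the same size in Cy3 (0.39) and in Cy5 (0.39), and both passed. MRPL28 element 2, a separate cDNA of the gene, differed by 0.14 ± 0.16 and did not pass (adjusted p = 0.5).

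MRPL43, a large-subunit protein, fell. Its lowest, median and highest values were -0.11, 0.04 and 0.79 on day -14 and 0.38, 0.52 and 0.72 on day -30, so 7 of 8 cows were lower. Its difference of -0.34 ± 0.10 (adjusted p = 0.00629) passed with liver in Cy3 (-0.32) and in Cy5 (-0.36). Without centring it was 0.082 and did not pass. TOMM34, MRPL28 element 1 and MRPL43 were the 3 of 19 that passed in both orientations, beside 838 of 2703 elements on the whole array. Without the 18 cow-days of low agreement, day -14 kept only the restricted cows 6877 and 6952 and the ad libitum cow 7161. The differences were then -0.72 for TOMM34, 0.56 for MRPL28 element 1 and -0.41 for MRPL43.

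The other members named here depended on the orientation of the dyes. MRPL38 rose by 0.50 ± 0.14 (adjusted p = 0.0044; 8 of 8 cows), with 1.07 in Cy3 and -0.066 in Cy5. MRPL24 rose by 0.47 ± 0.13 (adjusted p = 0.00403; 7 of 8 cows), MRPS17 by 0.45 ± 0.12 (adjusted p = 0.00468; 7 of 8 cows) and MRPL48 by 0.41 ± 0.13 (adjusted p = 0.0116; 8 of 8 cows). These 3 passed with liver in Cy5 (0.69, 0.82 and 0.60) and did not pass with liver in Cy3 (0.25, 0.08 and 0.23). MRPL24, MRPL38 and MRPL48 encode large-subunit proteins.

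Among the members that fell, MRPL45, a large-subunit protein at the polypeptide exit site, differed by -0.38 ± 0.10 (adjusted p = 0.0022; lower in 7 of 8 cows), with -0.51 in Cy3, which passed, and -0.25 in Cy5, which did not. MRPL33 differed by -0.31 ± 0.09 (adjusted p = 0.00831; lower in 7 of 8 cows), with -0.79 in Cy3 and 0.17 in Cy5. Without centring the difference was 0.039 for MRPL45, 0.11 for MRPL33 and -0.20 for TIMM8A, and none of them passed. TIMM8A differed by -0.63 ± 0.21 (adjusted p = 0.0218; lower in 6 of 8 cows), with -1.15 in Cy3 and -0.10 in Cy5. Of the 19 members that passed, 16 had the same sign in both orientations, as did 2520 of the 2703 elements that passed on the whole array. With liver in Cy3 alone, 17 members passed, 5 higher and 12 lower, and with liver in Cy5 alone 16 passed, 14 higher and 2 lower. Over all 8061 elements, 3304 passed in Cy3 alone, 1781 higher and 1523 lower, and 2323 in Cy5 alone, 1506 higher and 817 lower. Among members the count at this step was 9 without the ad libitum cow 7187 and 10 without the restricted cow 6952. It was 12 without any 1 of the ad libitum cow 6886 and the restricted cows 7045 and 7105. The share of all elements in these fits is not given here.

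**Figure D3:**
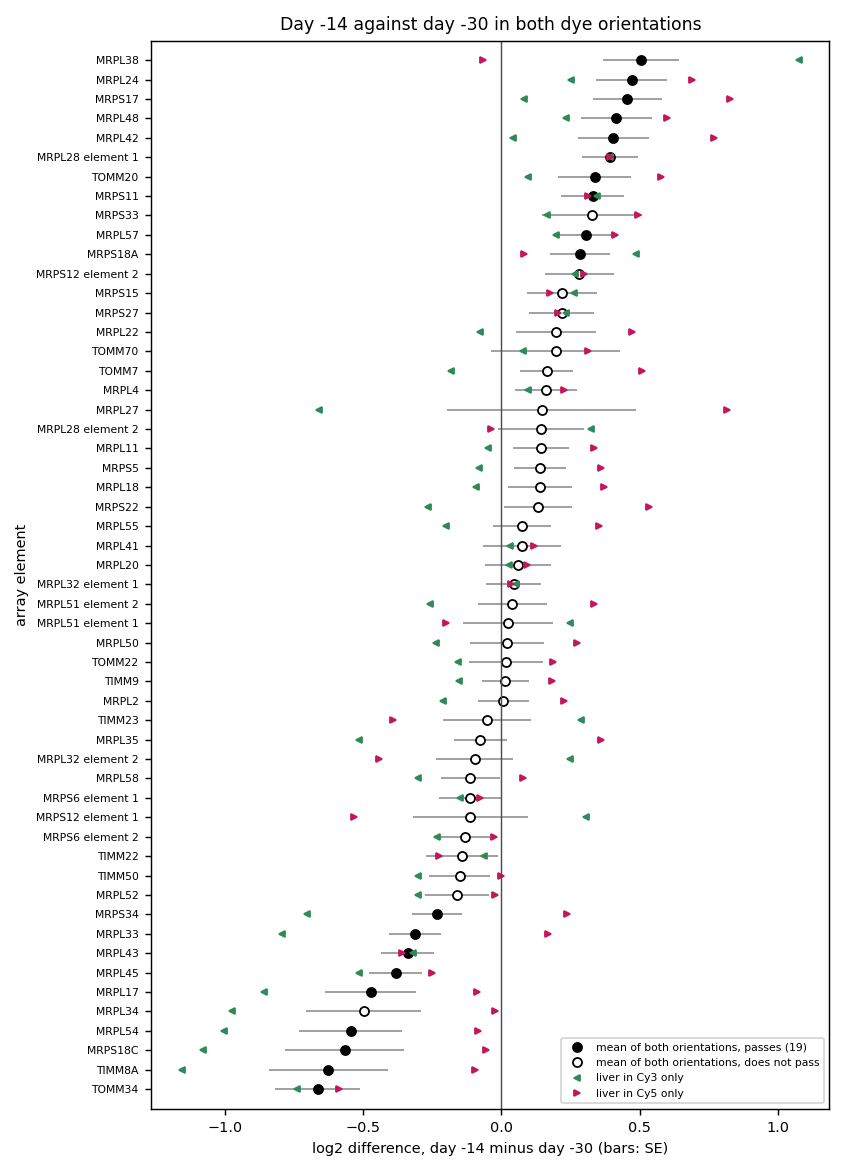
Log2 difference of day -14 minus day -30 for each of the 54 elements (circles with SE; filled where the adjusted p passed) and for the arrays with liver in Cy3 alone and in Cy5 alone (triangles). TOMM34, MRPL43 and MRPL28 element 1 lie close together in both orientations, while MRPL38 and TIMM8A differ between them.

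The steps before and after that one, up to day 14, held no member that passed. Array-wide counts at an unadjusted p are not given here for these steps. Day -30 against day -65 gave 0 of 54 past the adjusted threshold, beside 0.112% of all elements. At an unadjusted p under 0.05 there were 4 members. TOMM22, the central receptor of the TOM complex, had the smallest p there, with -0.34 ± 0.14 (adjusted p = 0.451; lower in 7 of 7 cows). MRPL4 (-0.23 ± 0.12) and MRPS27 (-0.23 ± 0.12) came next among negative differences, and MRPL35 (0.23 ± 0.10), MRPS15 (0.28 ± 0.13) and MRPS6 element 1 (0.26 ± 0.12) had the smallest p of the positive ones, with adjusted p between 0.538 and 0.723. Day 1 against day -14 gave 0 of 54 past the adjusted threshold, beside 0.397% of all elements. At an unadjusted p under 0.05 there were 9 members. MRPS17 had a difference of 0.44 ± 0.12 (adjusted p = 0.124; higher in 7 of 8 cows) and MRPL42 one of 0.43 ± 0.13 (adjusted p = 0.165; higher in 6 of 8 cows). MRPS34 had 0.25 ± 0.09 (adjusted p = 0.271), and on the negative side MRPL38 had -0.28 ± 0.14, MRPL28 element 1 -0.11 ± 0.10 and MRPL58, a peptidyl-tRNA hydrolase within the large subunit, -0.11 ± 0.11, with adjusted p between 0.485 and 0.814. Day 14 against day 1 gave 0 of 54 past the adjusted threshold, beside 0.707% of all elements. At an unadjusted p under 0.05 there were 7 members. TOMM7 had the smallest p there, with -0.30 ± 0.10 (adjusted p = 0.188; lower in 6 of 8 cows). MRPL55 had -0.31 ± 0.11 (adjusted p = 0.235) and MRPL42 -0.34 ± 0.13 (adjusted p = 0.32). On the positive side MRPL52 had 0.23 ± 0.12, TOMM34 0.20 ± 0.15 and MRPL4 0.14 ± 0.11, with adjusted p between 0.493 and 0.702.

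Day 28 against day 14 gave 1 member of 54, beside 8.62% of all elements, of which 3.71% were higher and 4.91% lower. This was MRPL33, a small protein of the large subunit. It had a lowest value of -0.62, a median of -0.34 and a highest value of -0.14 on day 28, against -0.96, -0.73 and -0.39 on day 14. The ranges overlapped, and 7 of 8 cows were higher on day 28. The difference was 0.32 ± 0.09 (adjusted p = 0.0198), with 0.68 in Cy3 and -0.031 in Cy5, and it was -0.15 without centring. Without the 18 cow-days, where day 14 kept only the restricted cows 6877 and 6952 and the ad libitum cow 7161, it was 0.35. MRPL38 had -0.48 there, beside -0.34 over all cow-days. Without any 1 of the cows 6886, 7045, 7161 and 7187 no member passed, and without the restricted cow 6952 4 did. The share of all elements in these fits is not given here, so these counts are not read as a result about the members.

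Day 49 against day 28 gave 0 of 54 past the adjusted threshold, beside 0.0124% of all elements. At an unadjusted p under 0.05 there were 2 members, and the array-wide count at that p is not given here. MRPL28 element 1 had the smallest p of the members. Its 6 cows lay between 0.05 and 0.29 on day 49 and its 8 cows between 0.54 and 0.67 on day 28, so the days did not overlap. The difference of -0.43 ± 0.11 did not pass (adjusted p = 0.273). MRPS18A (-0.25 ± 0.12) and MRPL4 (-0.25 ± 0.12) came next, and TIMM8A (0.37 ± 0.24), MRPL54 (0.32 ± 0.21) and MRPL34 (0.33 ± 0.23) had the smallest p of the positive differences, with adjusted p between 0.683 and 0.764. Without centring the difference was -0.0022 for MRPL28 element 1, 0.18 for MRPS18A and 0.19 for MRPL4, and the positive ones lay between 0.73 and 0.78.

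A set of 5 members had almost the same values in every cow-day. MRPL17, MRPL34 and MRPL54, all of the large subunit, MRPS18C of the small subunit, and TIMM8A correlated with each other over the 53 cow-days with r between 0.964 and 0.986. Over all 1431 pairs of member elements the median r was 0.032, and the highest r of any pair outside this set was 0.844, between TIMM50 and MRPL54. These points share arrays and the centring, so the values are a description. The set was chosen after its values were seen.

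Of all elements tested, 576 (7.15%) had r over 0.9 with the mean of these 5. They included an element of TKDP4, a trophoblast Kunitz domain protein of the ruminant placenta, with r of 0.992, while the array's other TKDP4 element had r of -0.162. An element of CYP19A1, the aromatase that makes estrogens, had r of 0.992, while the other CYP19A1 element had r of -0.0309. Both genes were picked after their values were seen.

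Before centring, the mean of the 5 elements was -0.57, -0.55, -0.67, -0.52, -0.58, -0.77 and -0.03 on days -65, -30, -14, 1, 14, 28 and 49. From day -65 to day 28 the mean of the 5 thus lay between -0.77 and -0.52, while the mean of the other 49 member elements was -0.60 on day -30 and -0.10 on day -14. The cause was not tested. Without these 5, 15 of 49 member elements passed at day -14 against day -30, 10 higher and 5 lower, and 18 of 49 passed the F test. These were 30.6% and 36.7% of the 49, beside 31.6% and 40.7% of the 7485 elements outside the 576.

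**Figure D4:**
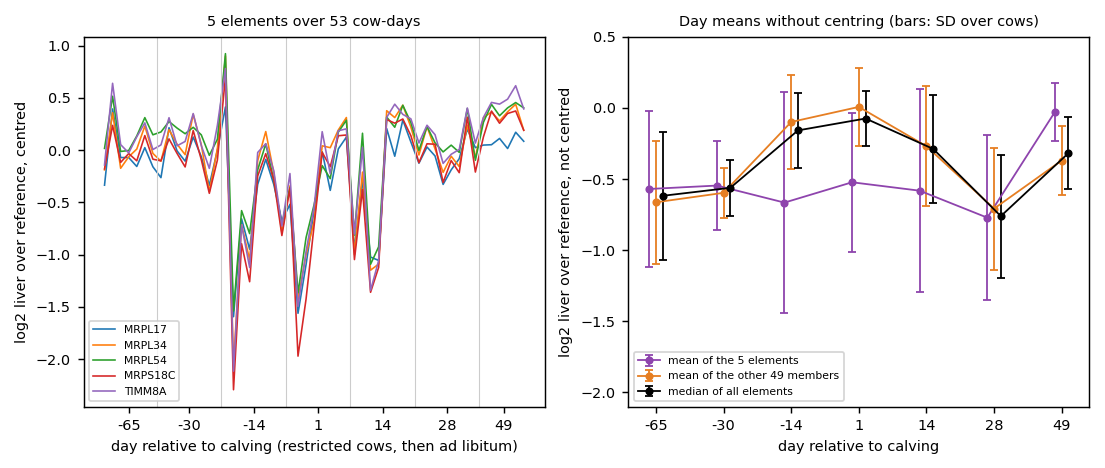
Left, centred log2 liver over reference of MRPL17, MRPL34, MRPL54, MRPS18C and TIMM8A in the 53 cow-days, ordered by day with restricted cows before ad libitum cows; the 5 lines nearly coincide. Right, day means without centring of these 5 elements, of the other 49 member elements and of the median of all elements (bars: SD over cows); the 5 elements lie near -0.55 on day -30 and -0.67 on day -14.

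Diet was compared with 1 value per cow, restricted minus ad libitum. For the period before calving, taken as the average of days -30 and -14, 0 of 54 member elements passed in limma, with 7 at an unadjusted p under 0.05, beside 0% of all elements, of which 1050 had an unadjusted p under 0.05. MRPL27 had the smallest p, with 0.38, 0.29 and 0.77 in the 3 restricted cows with values and -0.07, 0.08 and -0.21 in the 3 ad libitum cows with values. The difference was 0.55 ± 0.17 (adjusted p = 0.303), and the cows did not overlap. MRPL50, the element with the smallest p among those lower in restricted cows, had -0.44, -0.50, -0.41 and -0.47 in restricted cows and -0.19, -0.31, -0.04 and -0.06 in ad libitum cows, a difference of -0.30 ± 0.11 (adjusted p = 0.321). MRPS18A (0.36 ± 0.13), MRPL38 (0.33 ± 0.12), MRPL51 element 2 (-0.31 ± 0.12) and MRPL33 (-0.23 ± 0.11) had adjusted p between 0.323 and 0.414.

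After calving, on the mean of days 1, 14 and 28, when the feeding treatment of the dry period had ended, 6 of 54 member elements (11.1%) were lower in restricted cows and none was higher. This stands beside 10.5% of all elements, 0.67% higher and 9.81% lower. Of the 6, 5 were the elements with nearly identical values, so they do not count as separate observations. Among elements outside the 576 with that profile, 277 of 7481 passed, and among the other 49 members 1 passed, TIMM50. The values of TIMM50 followed that set in part, with r of 0.844 with MRPL54, 0.841 with MRPL34, 0.819 with MRPL17 and 0.815 with MRPS18C.

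MRPL34 averaged -0.46, -0.47, -0.71 and -0.66 in restricted cows and 0.12, 0.06, 0.29 and 0.15 in ad libitum cows. The groups did not overlap, and the difference was -0.73 ± 0.10 (adjusted p = 0.00103), a 0.602-fold ratio. MRPS18C averaged -0.51, -0.76, -0.91 and -0.72 in restricted cows and 0.06, -0.04, 0.25 and 0.02 in ad libitum cows. Its difference was -0.80 ± 0.12 (adjusted p = 0.00109). The other 3 of the set differed by -0.65 ± 0.11 (MRPL17, adjusted p = 0.00199), -0.69 ± 0.11 (TIMM8A, adjusted p = 0.00214) and -0.59 ± 0.11 (MRPL54, adjusted p = 0.0051).

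TIMM50, the receptor subunit of the TIMM23 translocase, averaged -0.44, -0.29, -0.52 and -0.46 in restricted cows and -0.13, -0.11, 0.05 and 0.03 in ad libitum cows. The groups did not overlap, and the difference was -0.39 ± 0.10 (adjusted p = 0.0291). It had the same sign in Cy3 (-0.35) and Cy5 (-0.43) and passed in neither alone. It ranked after the 5 members the naming rule takes and is given here after its values were seen. Without the 18 cow-days of low agreement, each cow averaged over its remaining days, none of the 54 member elements passed in limma, with 2 at an unadjusted p under 0.05, and 0 of 8061 elements of the array did, with 195 at an unadjusted p under 0.05. In that fit the ad libitum cows kept day 14 alone for cow 7161 and day 28 alone for the others. The restricted cows 6877 and 6952 kept days 1, 14 and 28, and 7045 and 7105 kept day 28 alone. Diet and sampling day therefore cannot be told apart there. Over all cow-days and without centring, 2 of the 6 passed, MRPL34 and MRPS18C.

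**Figure D5:**
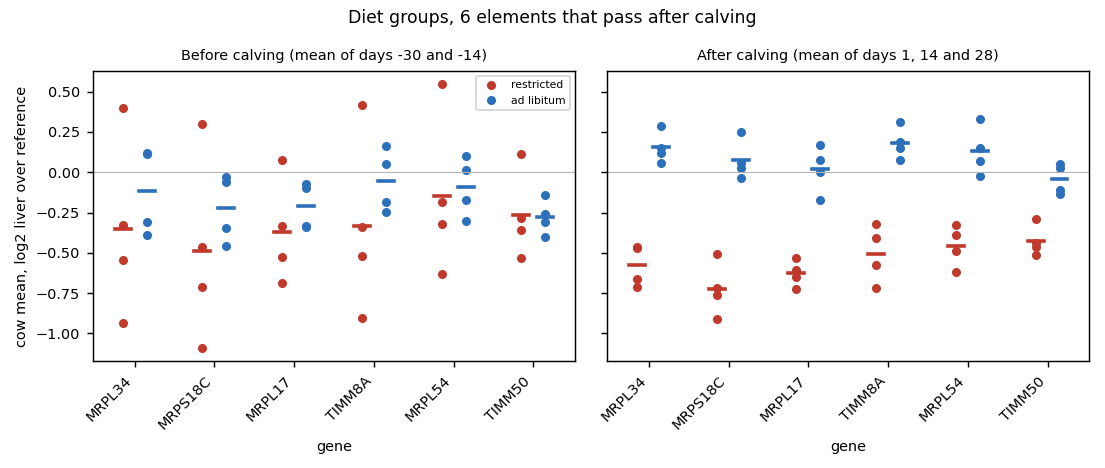
Cow means of log2 liver over reference before calving (days -30 and -14) and after calving (days 1, 14 and 28) for the 6 elements that passed after calving, restricted cows left of ad libitum cows; points are cows and short lines group means. After calving the 4 restricted cows lie below the 4 ad libitum cows in all 6 elements, and before calving the groups overlap.

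On single days, a comparison added after the values were seen, restricted cows differed from ad libitum cows on day -14 in 2 of 54 member elements, both higher, beside 6.08% of all elements. These were MRPS18A (0.61 ± 0.15, adjusted p = 0.014) and MRPL11 (0.49 ± 0.15, adjusted p = 0.0371). Neither passed without centring, with scaling or with liver in Cy3 alone. Without the 18 cow-days, day -14 kept only the restricted cows 6877 and 6952 and the ad libitum cow 7161, and MRPS18A had 0.36. MRPL11 also did not pass in Cy5 alone or with the covariate. On day 1 there were 5, beside 10.7% of all elements, of which TOMM7 was higher (0.45 ± 0.14, adjusted p = 0.0289) and MRPL17, MRPS18C, MRPL34 and TIMM50 lower. None of these 5 passed without centring or with liver in Cy3 alone, and TOMM7 also did not pass in Cy5 alone. On day 14 there were 7, beside 15.3% of all elements, of which MRPS12 element 1 was higher (1.26 ± 0.30, adjusted p = 0.00481) and TIMM50 and the 5 near-identical elements were lower. MRPS12 element 1 did not pass in Cy3 alone, nor TIMM8A and MRPL54 in Cy5 alone. MRPS12 element 2 was not among the 7. On the mean of days 1, 14 and 28 limma gave it 0.12 ± 0.12 (adjusted p = 0.607) and element 1 0.42 ± 0.17 (adjusted p = 0.204). Without the 18 cow-days, day 14 kept only the restricted cows 6877 and 6952 and the ad libitum cow 7161, too few to check these calls. These are the days of the lowest agreement between arrays, and the fit uses a single spread for all days.

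Whether the day course differed between diets was tested directly. In the diet-by-day F test 0 of 54 member elements passed the adjusted threshold, beside 0.794% of all elements. At an unadjusted p under 0.05 there were 9 members, and the array-wide count at that p is not given here. TIMM50 had the smallest p (adjusted p = 0.104), followed by MRPS18C (adjusted p = 0.142) and MRPL17 (adjusted p = 0.143). Without the restricted cow 6877 the count at the adjusted threshold was 8, and without the restricted cow 6952 it was 6. The share of all elements in those fits is not given here, so these counts are not read as a result about the members. The diet difference in the change across calving gave 0 of 54, with 4 at an unadjusted p under 0.05, beside 0% of all elements, of which 710 had an unadjusted p under 0.05. MRPL50 (0.51 ± 0.20), MRPL22 (0.47 ± 0.19) and MRPL51 element 2 (0.42 ± 0.18) had the smallest p among positive differences there, and MRPL17 (-0.49 ± 0.20), TIMM50 (-0.40 ± 0.19) and MRPS18C (-0.53 ± 0.25) among negative ones, all with an adjusted p of 0.504.

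Of the 5 genes with a pair of elements, none had elements that followed each other closely over the 53 cow-days. The correlation was 0.375 for MRPL28, 0.390 for MRPL32, 0.463 for MRPL51, 0.295 for MRPS12 and 0.474 for MRPS6. In the F test MRPL28 element 1 and MRPS12 element 2 (adjusted p = 0.0294) passed while the other element of each gene did not (adjusted p = 0.432 for MRPL28 element 2 and 0.604 for MRPS12 element 1). Neither element of MRPL32, MRPL51 or MRPS6 passed.

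Other lists give the setting of these changes at day -14 against day -30, where 19.5% of all elements were higher and 14% lower. Of 57 elements with symbols of cytosolic ribosomal proteins, 40 passed, all 40 higher, with a median difference of 0.52. The symbol rule also takes in RPL7L1 and RPS19BP1, which are not ribosomal proteins proper. Neither passed, and without them 40 of 55 did, with a median of 0.53. RPS29 differed by 0.86 ± 0.14 (adjusted p = 1.25e-05), with 0.36 in Cy3, which did not pass, and 1.37 in Cy5. An element of RPS15A differed by 0.92 ± 0.15 (adjusted p = 1.7e-05), with 0.45 in Cy3, which did not pass, and 1.38 in Cy5, while the gene's other element had -0.36 ± 0.33 (adjusted p = 0.422). With liver in Cy3 alone 8 of the 57 passed, 7 higher and 1 lower, and with liver in Cy5 alone 50 passed, all higher. Without centring 51 of the 57 passed, all higher.

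Of 53 elements with symbols of oxidative phosphorylation subunits, 21 were higher and 2 lower (43.4% in all, beside 33.5% of all elements), with a median difference of 0.25. Left out of the list, NDUFA4L2 and COX7A2L, relatives of subunits, changed neither count. NDUFV1, a core subunit of complex I, differed by 0.74 ± 0.17 (adjusted p = 0.000896), with 1.05 in Cy3 and 0.43 in Cy5, which did not pass. With liver in Cy3 alone the oxidative phosphorylation median turned to -0.07, with 5 higher and 7 lower, and with liver in Cy5 alone it was 0.46, with 28 higher and none lower.

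Mitoribosome proteins that carry other names were represented by 3 elements. CHCHD1 (0.33 ± 0.09, adjusted p = 0.00623) and PTCD3 (0.72 ± 0.21, adjusted p = 0.00838) rose in that step, and AURKAIP1 had 0.22 ± 0.11 (adjusted p = 0.119). CHCHD1 and PTCD3 passed with liver in Cy5 (0.58 and 1.12) and did not pass in Cy3 (0.079 and 0.31). Of 17 elements of mitochondrial gene expression factors, 1 was higher and 2 lower, 17.6% beside the 33.5%. TUFM, the mitochondrial translation elongation factor Tu, differed by -0.71 ± 0.15 (adjusted p = 0.000285) and passed in Cy3 (-0.99) and Cy5 (-0.43), but not without centring (-0.29). Of 26 elements of import partners, folding factors and proteases, 5 were higher and 3 lower, 30.8% beside the 33.5%. An element of GFER, the sulfhydryl oxidase of the intermembrane space import pathway, differed by -0.79 ± 0.18 (adjusted p = 0.000781) and passed in both orientations, but not without centring (-0.37). The other GFER element had 0.35 ± 0.18 (adjusted p = 0.118). An element of VDAC2, an outer membrane channel, differed by 0.60 ± 0.14 (adjusted p = 0.00107) and passed in both orientations, and the other had -0.28 ± 0.13 (adjusted p = 0.101).

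After calving, restricted minus ad libitum, where 10.5% of all elements passed, 0 of 57 cytosolic ribosomal elements passed in limma, with 6 at an unadjusted p under 0.05. A single oxidative phosphorylation element of 53 passed, NDUFA9 (-0.51 ± 0.12, adjusted p = 0.0202). Of the 17 gene expression elements 2 were lower, an element of MTRF1L (-0.64 ± 0.12, adjusted p = 0.0046) and PNPT1 (-0.41 ± 0.10, adjusted p = 0.0203), while the other MTRF1L element had 0.05 ± 0.19. Of the 26 import partner elements 3 were lower, an element each of VDAC2 (-0.60 ± 0.10, adjusted p = 0.00181), LONP1 (-0.68 ± 0.11, adjusted p = 0.00221) and GFER (-0.55 ± 0.11, adjusted p = 0.00682). The other elements of these 3 genes had -0.022 ± 0.15, 0.18 ± 0.13 and 0.0014 ± 0.17 and did not pass. The VDAC2 element that passed here was not the one that passed at day -14. The shares of 11.8% of gene expression elements and 11.5% of import partner elements were near the 9.81% of all elements that were lower. None of the 6 list elements that passed did so without centring or without the 18 cow-days. The fit without those cow-days sets unlike sampling days of the diet groups against each other.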

How the data were processed

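Liver RNA of 8 cows was hybridised against reference RNA on 2-colour spotted cDNA arrays, scanned and read with GenePix, per the labels. The authors deposited log2 ratios of Cy5 over Cy3 per spot; the log base and direction follow from the values and the array titles, and 4 arrays whose longer text names the opposite dye were placed by title. Background correction, spot filters and normalization are not given in the sources used here, and the arrays are not centred. The number of arrays limits the precision.

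Values were turned to liver over reference, averaged over the 2 spots of an element, centred on each array's median and averaged over both orientations. An element was tested with values from at least 2 cows in each of 14 diet-by-day groups (8061 of 8208). limma 3.58.1 in R 4.3.3 fitted a mean per group, treating cow as random (within-cow correlation 0.0176), and 1 value per cow for the diet contrasts; p-values were adjusted by Benjamini-Hochberg over all elements tested (threshold 0.05). Elements were named from the platform annotation, where 5598 have 1 symbol, 95 several and 2515 none; all 54 member elements matched RefSeq. Replicates are cows, and cow numbers do not pair the diets. Members and lists were chosen with earlier results of these data known. Named elements were up to 5 higher and 5 lower with the smallest p of those that passed, up to 3 each where none passed, and, per class, the 2 smallest and the largest p of the F test. Alternatives were no block, no centring, scaling, single orientations, complete elements, agreement between arrays as a covariate or filter, and leaving out each cow. The fits were tested on simulated data.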

Additional observations from a re-analysis of the deposited data

Results flagged for a closer look

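In 5 of 154 groups of 4 to 8 cows tested over 18 elements, 1 cow lay farther from the others than Dixon's 95% critical value, and chance flags about 1 in 20 groups. On day 14 the ad libitum cow 7161 had 1.23 for MRPL28 element 1, with the other 7 cows between 0.45 and 0.77. On day 28 the restricted cow 7105 had 0.15 for MRPS17, with the others between 0.70 and 1.00. On day -65 the ad libitum cow 6886 had -1.02 for TIMM9, with the others between -0.65 and -0.44. On day 1 the restricted cow 7045 had -0.54 for MRPL45, with all others at -0.79 or below. On day -65 the ad libitum cow 7187 had 0.59 for MRPL43, with the others between 0.26 and 0.38. Each of the 5 flags came from a different cow.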

How the results depend on the processing

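With no replicate block for cow, 22 members passed the F test and 19 passed day -14 against day -30, and no other count of a day comparison changed. The F test gave 37 members without centring, 9 with the agreement between the arrays of a cow-day as a covariate, and 13 to 23 with each cow left out in turn. Day -14 against day -30 gave 9 to 21 with each cow left out, and the share of all elements in these fits is not given here. Leaving out the 18 cow-days with agreement under 0.6 kept only the restricted cows 6877 and 6952 and the ad libitum cow 7161 on day -14. That filter removed all ad libitum cows on day 1, so the F tests and the steps to and from day 1 could not be fitted under it. Day 28 against day 14 gave 1, which was higher; it gave 14 without centring, all lower, 3 with scaling, 2 higher and 1 lower, 10 with liver in Cy3 only, 9 higher and 1 lower, and 0 to 4 with each cow left out. The 3 counts were 25.9%, 5.56% and 18.5% of members without centring, with scaling and in Cy3, beside 31.6%, 14.8% and 29.1% of all elements. Day 49 against day 28 gave 1 with scaling. The diet-by-day F test gave 1 with the covariate and 0 to 8 with each cow left out. Restricted against ad libitum after calving gave 2 without centring, 0 without the 18 cow-days and 5 to 6 with each cow left out. For day 28 against day 14 and these diet comparisons, the share of all elements with a cow left out is not given here. Without the 18 cow-days the diet groups kept unlike days, so that fit is not the same comparison. An agreement computed after removing each element's mean dye difference was added after several definitions had been looked at. With it as a covariate the F test gave 12 and day 28 against day 14 gave 0, and without the 7 cow-days under 0.75 day 28 against day 14 and the diet comparison after calving each gave 0. Over the elements named, 1227 alternative values were computed, of which 1139 kept direction and side of the threshold and 7 that passed changed sign. These were MRPL38 (-0.066) and MRPL33 (0.17) at day -14 against day -30 with liver in Cy5 only, MRPL45 (0.039), MRPL43 (0.082) and MRPL33 (0.11) in that step without centring, and MRPL33 at day 28 against day 14 without centring (-0.15) and in Cy5 only (-0.031). The cause was not tested.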

Other observations

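Of the 19 member elements that passed at day -14 against day -30, 18 had a difference of opposite sign at day 28 against day 14, a step that shares no arrays with the first. Over the whole array this held for 2409 of 2703 elements (89.1%), so it was not particular to the members. Days -14 and 14 both have a low agreement between the arrays of a cow-day, and the part of that in these opposite signs was not tested.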
